A study of Arabidopsis thaliana with 20 samples.

Results

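Transcript levels in stomata of unstressed bam1 plants were compared with those in stomata of unstressed wild-type plants on 5 of the 20 arrays of the series. The members were the arrays titled as stomata bam1 control, replicates 1 and 2, and as stomata Col-0 control, replicates 1 to 3. Col-0 is the Arabidopsis thaliana wild type, and bam1 is a homozygous T-DNA insertion line with the insertion in the beta-amylase gene BAM1. Plants were 5 weeks old, had been kept under control conditions, and were harvested when the light period ended. The other 15 arrays cover whole leaves of both genotypes and plants of both genotypes given 5 days of mild drought, and the 3 bam1 and 3 Col-0 arrays of control leaves are used here for comparison.

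A single insertion line stands for the loss of BAM1, with no second allele and no complemented line among the arrays. Each replicate pooled 5 to 8 plants per the labels, so the spread between arrays is that between pools. Stomatal RNA came from epidermal peels obtained by blending leaves and collecting the fragments on a mesh, and RNA from other cells of the leaf can be present. In such bulk samples fewer cells of a type and less RNA per cell cannot be told apart. The 5 arrays had median processed signals of 164 to 188 and 66.4% to 75.4% of spots well above background, and 0 spots were saturated. Arrays came from 6 slides, and each slide that held one of the 5 arrays held only 1 of the 2 groups, so slide and genotype cannot be told apart within them. One array labelled as drought stomata of Col-0 (replicate 2) had a BAM1 log2 signal of 7.81, at the level of bam1, which goes against its label. It belongs to neither group compared here, but enters the normalisation over the 20 arrays and the estimate of the spread, and the call of BAM1 is also given from a fit without it.

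Guard cells, unlike most leaf cells, break down starch during the day, and the maltose and glucose released feed the osmotic changes that open the pore. Beta-amylases release maltose from starch, and BAM1 is a plastid form that acts in guard cells. BAM3 is the main form of mesophyll chloroplasts at night, and BAM4 and BAM9 lack catalytic activity.

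BAM1 (AT3G23920) is the gene that carries the insertion and was read first. Its log2 signal was 7.36 and 9.71 in bam1 arrays 1 and 2, and 13.46, 13.50 and 13.97 in Col-0 arrays 1, 2 and 3. Both bam1 arrays lay far below all Col-0 arrays, and array 2 lay well above array 1. As processed signal before normalisation, they read 142.6 and 619.3 against 8093, 8249 and 12060. The mean was 34.4-fold lower in bam1 (a log2 change of -5.11 ± 1.09, SE), with array 1 at 77.7-fold and array 2 at 15.3-fold below the Col-0 mean. This fall was 1 of the 2 largest among features lower in bam1, and it did not pass the threshold (adjusted p 0.117). With the array whose signal contradicted its label left out of the fit, the same difference passed (adjusted p 0.00194). That array had been singled out by its BAM1 signal, which widened the spread of BAM1 in the fit. The pass is therefore not independent evidence. In control leaves, where all 3 bam1 arrays read between 6.45 and 6.96, BAM1 was 30.7-fold lower and was called (adjusted p 0.0279).

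The bam1 arrays were 5.10-fold apart in BAM1, or 4.34-fold as processed signal. They also stood further apart overall than the Col-0 arrays did. At least 2-fold differences separated them in 2501 of 29374 features, compared with 1142 to 1369 features for pairs of Col-0 arrays. The BAM1 difference ranked 312th by size among these features. Normalised signals correlated across features at r of 0.979 between both bam1 arrays, at 0.984 to 0.986 between Col-0 arrays, and at 0.980 to 0.988 between the genotypes. Probes are not independent replicates.

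**Figure D1:**
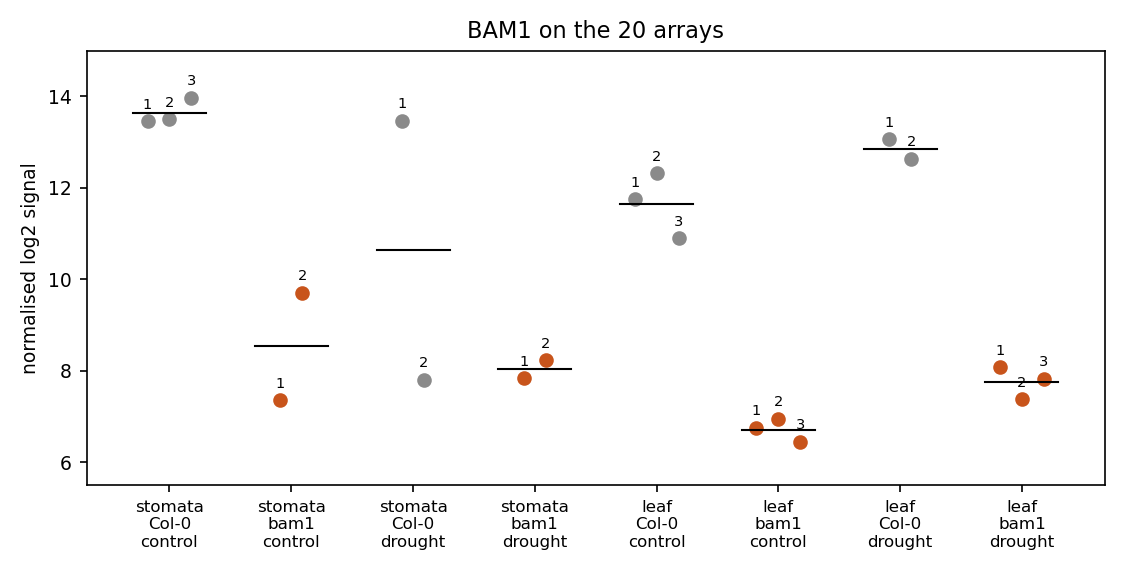
Log2 signal of BAM1 (y axis, quantile-normalised) on each array of the control and drought groups of stomata and leaves (x axis), with 1 numbered point per array and a bar at each group mean. The bam1 control stomata sit at 7.36 and 9.71, and the Col-0 control stomata between 13.46 and 13.97.

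Of the 9 beta-amylases 8 were measured, BAM4 having no matched probe, and the 7 others than BAM1 did not pass the test. BAM5, the extraplastidic form of phloem, read 7.07 and 7.97 in bam1 and 8.79, 8.69 and 7.98 in Col-0. Its change was -0.97 ± 0.42 (adjusted p 0.529), and array 2 lay just below the lowest Col-0 array. BAM9 lay at 10.43 and 10.31 in bam1, below the 10.62 to 10.82 of Col-0, by a change of -0.36 (adjusted p 0.661). BAM2 ranged more widely in Col-0, from 6.92 to 9.09, than between genotypes, and bam1 read 8.51 and 8.73. BAM3, BAM6, BAM7 and BAM8 overlapped between genotypes, with changes of -0.08 to 0.19. Of the 20 annotated genes nearest to BAM1 on the chromosome, 13 were measured, with changes of -0.69 to 0.25, and 0 were called.

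The labelled tissue was checked with 15 guard cell markers, among them the transcription factors MYB60 and FAMA, the kinases HT1 and OST1, and the anion channels SLAC1 and ALMT12. In Col-0 their median was 3.21 higher (log2) in stomata than in leaves, so the preparations were enriched for guard cells, although TGG2 lay at -1.32. The enrichment was not particular to guard cells. Of the 12 vascular markers, AHA3 (2.68), APL (2.59) and SUC2 (1.92) were also higher in stomata, while SWEET12 (-1.94) and XCP1 (-1.53) were lower. The vascular median was -0.03. The small subunit of Rubisco and other mesophyll markers had a median of -0.01 between the tissues, from -0.67 in GAPA to 0.35 in LHCB1.1. Most of these probes are among the brightest, where quantile normalisation leaves little room for a difference. Their median therefore cannot show whether mesophyll RNA was depleted. The mean log2 signal of the guard cell markers was 12.80 and 11.82 in bam1 arrays 1 and 2, and 12.92, 12.32 and 12.89 in Col-0. Array 2 was the lowest of the 5 arrays for 14 of the 15 markers, whereas array 1 fell within the Col-0 range for 11. MYB60, for example, read 13.96 and 12.59 in bam1 against 14.04, 13.24 and 14.06 in Col-0. The median change of the 15 markers was -0.47 over both arrays, 0.10 for array 1 alone and -1.04 for array 2 alone, against a median over all genes of 0.01. None was called, 3 had an unadjusted p under 0.05, and the largest changes were -0.81 in BLUS1, a kinase of blue light signalling, and -0.74 in KAT2, an inward potassium channel. These were 2 of the 3, and the other, TGG2, lay above all Col-0 arrays (0.63, adjusted p 0.315). The signal of array 2 thus combined higher BAM1 with lower guard cell markers. The part of either in the results that follow was not tested.

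Markers of other cells of the leaf overlapped between the genotypes. Of 13 mesophyll, 12 vascular and 9 epidermal markers measured, 0 were without overlap between the groups, and their median changes were -0.002, 0.10 and -0.05. Over all genes, 13.5% were higher and 10.4% lower in bam1 without overlap. The mesophyll markers had a mean log2 signal of 17.32 and 17.38 in bam1 and of 17.31 to 17.49 in Col-0. Quantile normalisation leaves probes this bright little room to differ between genotypes too. The largest changes were -0.24 in RBCS1A and -0.21 in LHCB1.1 for mesophyll, 0.49 in SWEET12 and 0.28 in CESA7 for vascular tissue, and 0.64 in CER4 and -0.29 in KCS6 for epidermis. Stomatal lineage genes overlapped in 15 of 15 cases, with a median of -0.10 (0.14 from array 1 and -0.38 from array 2) and the largest changes in FAMA (-0.57) and EPF1 (-0.53).

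Against this background, 19 features were called between bam1 and Col-0 stomata under control conditions (0.0647% of 29374 features, a feature being a probe). A feature was called at an adjusted p under 0.05 and a change of at least 2-fold. Of these, 15 were higher in bam1 (0.0511%) and 4 were lower (0.0136%). They belonged to 17 genes and to 2 probes without a matched gene. The higher genes included a wall enzyme, XTH33, SOB5, a gene known as a suppressor of a phytochrome B mutant, and the clock-linked genes PRR3 and GRP7. The lower genes included a protease inhibitor, a lipid transfer protein and the protein phosphatase PLL4. All 19 were without overlap between the genotypes, which also held for 13.6% of all features in the upward and 10.3% in the downward direction. Array 2 lay further from Col-0 than array 1 in 17 of the 19. At an unadjusted p under 0.05 stood 2556 features (8.7%), 4.94% higher and 3.77% lower, and at an adjusted p under 0.05 with any fold 23 (0.0783%), and the median change over all features was 0.01.

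The count depended on single arrays. It was 523 without bam1 array 1 and 7 without bam1 array 2, of which 18 and 1 were among the 19, and it was 2, 23 and 1 without Col-0 arrays 1, 2 and 3, of which 1, 13 and 1 were among them. With the 5 arrays alone in the fit 0 were called in limma, with 2058 at an unadjusted p under 0.05. AT4G01535 was the 1 of the 19 that was still called without Col-0 array 1 and without Col-0 array 3. The 19 kept their direction in the limma refits that tested them, 7 of them not being tested where all 5 arrays had to be well above background.

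**Figure D2:**
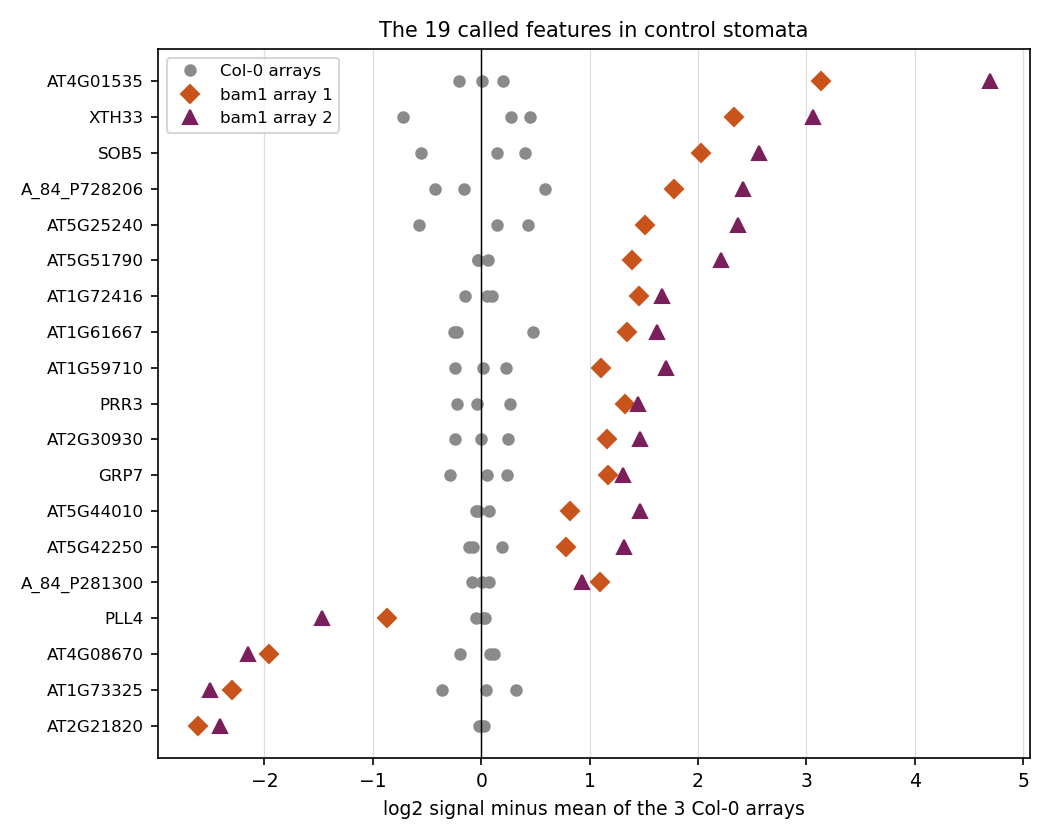
Log2 signal of each called feature (rows, ordered by change) minus its Col-0 mean (x axis), with a diamond for bam1 array 1, a triangle for bam1 array 2 and circles for the 3 Col-0 arrays. In the 15 higher and the 4 lower features both bam1 arrays lie outside the range of the Col-0 arrays.

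The feature with the largest called rise was AT4G01535, annotated as an uncharacterized protein. It read 5.74 and 7.30 in bam1 and 2.61, 2.81 and 2.41 in Col-0. It was well above background on the 2 bam1 arrays and on 0 of the other 18 arrays of the series, where it did not exceed 2.81. Its change was 3.91 ± 0.29 (adjusted p 3.1e-05), an at least 14.7-fold higher level, the Col-0 arrays being taken at the lowest signal well above background on each. The bam1 arrays themselves were 2.95-fold apart. The call held without each of the 5 arrays in turn, with adjusted p values of 8.1e-10 to 3.9e-04, and was lost with the 5 arrays alone in the fit (adjusted p 0.598). With normexp background correction the change was 1.23.

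XTH33 (AT1G10550) is a xyloglucan endotransglucosylase/hydrolase, an enzyme that splits and rejoins the xyloglucan tethers of the wall. Its signals were 7.40 and 8.13 in bam1 and 4.35, 5.35 and 5.52 in Col-0. The groups were well apart, with 2 of the 3 Col-0 arrays above background. The change was 2.69 ± 0.43 (adjusted p 0.0292), or 6.46-fold. SOB5 (AT5G08150), SUPPRESSOR OF PHYTOCHROME B 5, a gene known from an activation-tagged line with altered cytokinin levels, read 5.56 and 6.10 in bam1 and 3.69, 3.94 and 2.98 in Col-0. Only 1 of the 3 Col-0 arrays was above background for it. It rose by 2.30 ± 0.36 (adjusted p 0.0252). Both genes also rose in leaves of bam1, by 2.33 (adjusted p 0.00925) and 1.84 (adjusted p 0.0121). Both calls were lost without bam1 array 2, without Col-0 array 1 and without Col-0 array 3. With normexp background correction the changes were 1.34 for XTH33 (adjusted p 0.0594) and 0.73 for SOB5 (adjusted p 0.0287, under 2-fold).

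PRR3 (AT5G60100) encodes a pseudo-response regulator of the circadian clock. It read 8.97 and 9.09 in bam1 and 7.60, 7.91 and 7.42 in Col-0. Both bam1 arrays were nearly equal and above all Col-0 arrays. The rise was 1.39 ± 0.20 (adjusted p 0.0206). GRP7 (AT2G21660) encodes a glycine-rich RNA-binding protein that oscillates under clock control and regulates splicing. Its called probe read 11.37 and 11.51 in bam1 and 10.25, 10.44 and 9.91 in Col-0, a rise of 1.24 ± 0.17 (adjusted p 0.0206). The brightest of its 3 probes read 17.80 and 17.82 against 17.03, 17.09 and 16.94, with a change of 0.79 (adjusted p 0.0502), and the remaining probe gave 0.71 (adjusted p 0.353). For PRR3 and GRP7 the arrays of a genotype were close to one another, and the 0.12 and 0.14 between both bam1 arrays were small beside the change.

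The remaining higher genes have no role that the sources used here give. AT5G25240 read 9.54 and 10.39 in bam1 and 7.45, 8.45 and 8.17 in Col-0, a rise of 1.94 ± 0.29 (adjusted p 0.0252). AT5G51790 read 6.71 and 7.53 against 5.29, 5.38 and 5.29, a rise of 1.80 ± 0.26 (adjusted p 0.0206). For it, 2 of the 3 Col-0 arrays were above background, and over the refits its change ranged from 0.79 to 2.21. AT1G72416 read 10.14 and 10.35 against 8.53, 8.73 and 8.79, a rise of 1.56 ± 0.21 (adjusted p 0.0206), and its other probe changed by 1.26 without passing the threshold (adjusted p 0.101). In each of these 3 genes array 2 was the higher of both bam1 arrays. AT2G30930, annotated as an uncharacterized protein, was the brightest of the called features at 12.98 and 13.28 against 11.57, 12.06 and 11.81, a rise of 1.32 ± 0.19. Its other probe was dim, overlapped between the genotypes at 5.16 and 6.55 against 5.74, 4.39 and 3.15, and was not called (1.43, adjusted p 0.495). Rises of 1.48, 1.40, 1.14 and 1.05 were called for AT1G61667, AT1G59710, AT5G44010 and AT5G42250. A second probe was available for 3 of these and was not called, with changes of 0.78 for AT1G59710, 0.70 for AT5G42250 and 0.03 for AT5G44010. The 2 probes without a matched gene, A_84_P728206 and A_84_P281300, also rose, the first at least 4.28-fold, with 0 Col-0 arrays above background, and the second by 1.01. With normexp the change of A_84_P728206 was 0.38 (adjusted p 0.137).

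Among the 4 lower genes, AT1G73325 belongs to the Kunitz family of trypsin and protease inhibitors. It read 6.24 and 6.03 in bam1 and 8.86, 8.58 and 8.17 in Col-0. Both bam1 arrays were low and close together. It fell by 2.40 on the log2 scale (SE 0.37, adjusted p 0.0252), or 5.29-fold. AT2G21820 was not well above background in bam1, at 2.75 and 2.95, and stood at 5.39, 5.35 and 5.37 in Col-0, an at least 5.71-fold lower level (adjusted p 0.0366). With normexp its change was -0.55 (adjusted p 0.165). LTPG4 (AT4G08670) encodes a GPI-anchored lipid transfer protein. It was likewise not well above background in bam1, at 3.74 and 3.55, against 5.81, 5.78 and 5.50, an at least 4.16-fold lower level (adjusted p 0.0486), and with normexp its change was -0.53 (adjusted p 0.169). PLL4 (AT2G28890) encodes a protein phosphatase 2C of the POLTERGEIST-LIKE family and read 9.96 and 9.36 in bam1 and 10.86, 10.78 and 10.84 in Col-0. It fell by 1.17 on the log2 scale (SE 0.17, adjusted p 0.0232), with array 2 the lower of both.

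A further 4 features had an adjusted p under 0.05 with less than 2-fold change. They were LUX (AT3G46640, also PCL1), a component of the evening complex of the clock, at 0.99 ± 0.15, AT2G31010 at 0.98, RABG3B, a small GTPase, at 0.93, and HPL1, a gene of the hydroperoxide lyase family, at -0.77. Of the genes lower by at least 2-fold without overlap that were not called, those with the lowest p were AT5G53895 (-1.12, adjusted p 0.0638) and NIG1, a calcium-binding transcription factor (-1.07, adjusted p 0.0644). They were followed by AT3G21295 (-1.04, adjusted p 0.0759), AT5G23480 (-1.12, adjusted p 0.0783), CAC2, the biotin carboxylase subunit of plastid acetyl-CoA carboxylase (-1.89, adjusted p 0.0852), AT5G40020, a thaumatin-like protein (-1.28, adjusted p 0.101), and AT4G09890 (-1.13, adjusted p 0.101). For CAC2 the value of Col-0 array 1 was missing as an outlying spot.

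Whether these differences were shared with whole leaves was examined on the separate leaf arrays, where 123 of the same features were called (0.419%) and 9.8% had an unadjusted p under 0.05. Of the 19 stomatal features, 13 had the same sign in leaves and 7 were called there. The 7 were XTH33, SOB5, AT5G25240, AT1G72416, AT1G61667, AT2G30930 and A_84_P728206, all higher in both tissues, with AT5G25240 at 2.43 in leaves (adjusted p 3.0e-04). The 4 features that fell in stomata had leaf changes of 0.05 to 0.77, and PRR3 and GRP7 had leaf changes of -0.10 and 0.22.

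The difference between both genotype effects was tested directly, and 3 of 29374 features were called (0.0102%). AT4G01535 was the only one of the 19, with a leaf change of 0.03 ± 0.26 and a difference of 3.89 ± 0.38 (adjusted p 0.00168). The differences of the other stomatal features did not pass, although 11 of the 19 had an unadjusted p under 0.05, compared with 7.39% of all features. For PRR3 the difference was 1.48 ± 0.27 (adjusted p 0.119), for AT2G21820 it was -3.29 ± 0.56 (adjusted p 0.101), and for PLL4 -1.22 ± 0.23 (adjusted p 0.136). The leaf and stomatal arrays are different samples, and the features had been selected on the stomatal ones.

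**Figure D3:**
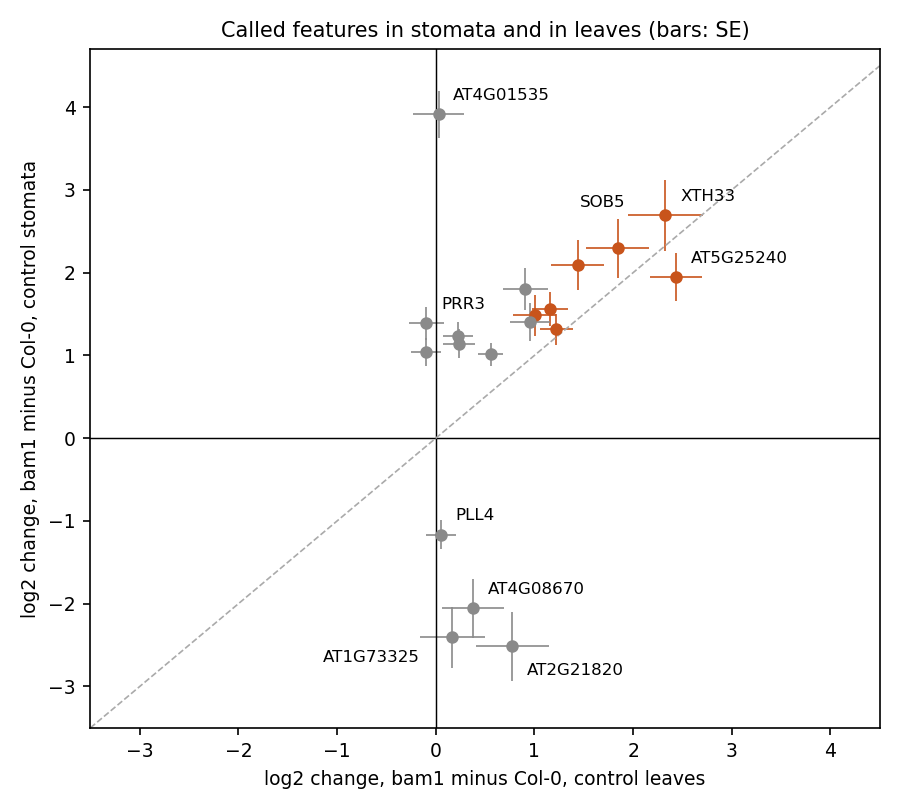
Log2 change of the 19 called features between bam1 and Col-0 in control stomata (y axis) against that in control leaves (x axis), with bars for the SE and orange points for features also called in leaves. AT4G01535 lies at 3.91 in stomata and 0.03 in leaves, whereas XTH33 lies at 2.69 and 2.33.

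Wall-modifying families were examined by counts of genes, with 1 probe per gene. The study had picked these families as lower under drought than under control in bam1 stomata, which is another comparison than the one made here. It shares the control arrays, so the direction found here is not independent evidence. Over all 18588 genes, 12 were called (0.0646%), 13.5% were higher and 10.4% lower in bam1 without overlap, 8.38% had an unadjusted p under 0.05, and the median change was 0.01. Of 33 xyloglucan endotransglucosylase genes 23 were measured, and 1 was called, XTH33. The family had 10 members higher and 2 lower without overlap and a median of 0.61, or 0.41 from bam1 array 1 and 0.71 from array 2.

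Members with changes of at least 2-fold upward that did not pass were XTH15, XTH9, XTH8, XTH25 and XTH4. XTH9 read 13.52 and 13.46 in bam1 and 11.77, 12.53 and 11.40 in Col-0 (1.59 ± 0.43, adjusted p 0.227), and XTH8 read 10.70 and 10.67 against 8.59, 9.90 and 9.14 (1.47 ± 0.34, adjusted p 0.141). For these the Col-0 arrays were more spread than the bam1 arrays. XTH4 read 11.98 and 12.87 against 10.74, 11.41 and 10.86, and XTH15 read 7.01 and 7.61 against 5.61, 5.73 and 5.71. XTH13 lay in the other direction at -1.04, with 4.20 and 6.66 in bam1 and 6.14 to 6.70 in Col-0, so that array 2 overlapped. In leaves the family median was 0.55, with 5 members called higher, and 13 of the 23 were higher in both tissues.

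Arabinogalactan proteins are heavily glycosylated proteins of the cell surface. Of 50 genes 37 were measured, 0 were called in limma, 12 had an unadjusted p under 0.05, and 18 were higher and 2 lower without overlap, with a median of 0.31. The median was 0.22 from array 1 and 0.44 from array 2, and 0.11 in leaves. AGP10 came nearest to the threshold, with 10.81 and 10.42 in bam1 against 9.63, 9.996 and 9.30 (0.98 ± 0.20, adjusted p 0.101). AGP17 read 12.97 and 13.33 against 11.31, 12.13 and 11.70 (1.44), and AGP12 read 14.74 and 15.04 against 13.35, 13.92 and 13.56 (1.28). AGP4 lay lower, at 13.00 and 12.41 against 13.58, 13.31 and 13.75 (-0.84).

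Expansins, which loosen the wall at low pH, were mixed. Of 38 genes 20 were measured, 4 were higher and 5 lower without overlap, and the median was 0.06 (-0.01 from array 1 and 0.11 from array 2). The 3 expansin-like A genes had the largest changes. EXLA2 read 8.06 and 8.37 in bam1 and 6.49, 7.23 and 7.09 in Col-0 (1.28 ± 0.23, adjusted p 0.0536), EXLA1 read 10.01 and 10.72 against 8.65, 9.84 and 8.71 (1.303, adjusted p 0.199), and EXLA3 overlapped between genotypes (1.36). Their changes in leaves were 1.77, 1.66 and 1.57, and the first of these passed the test there (adjusted p 4.6e-04), as did EXLA1 (adjusted p 0.0159).

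**Figure D4:**
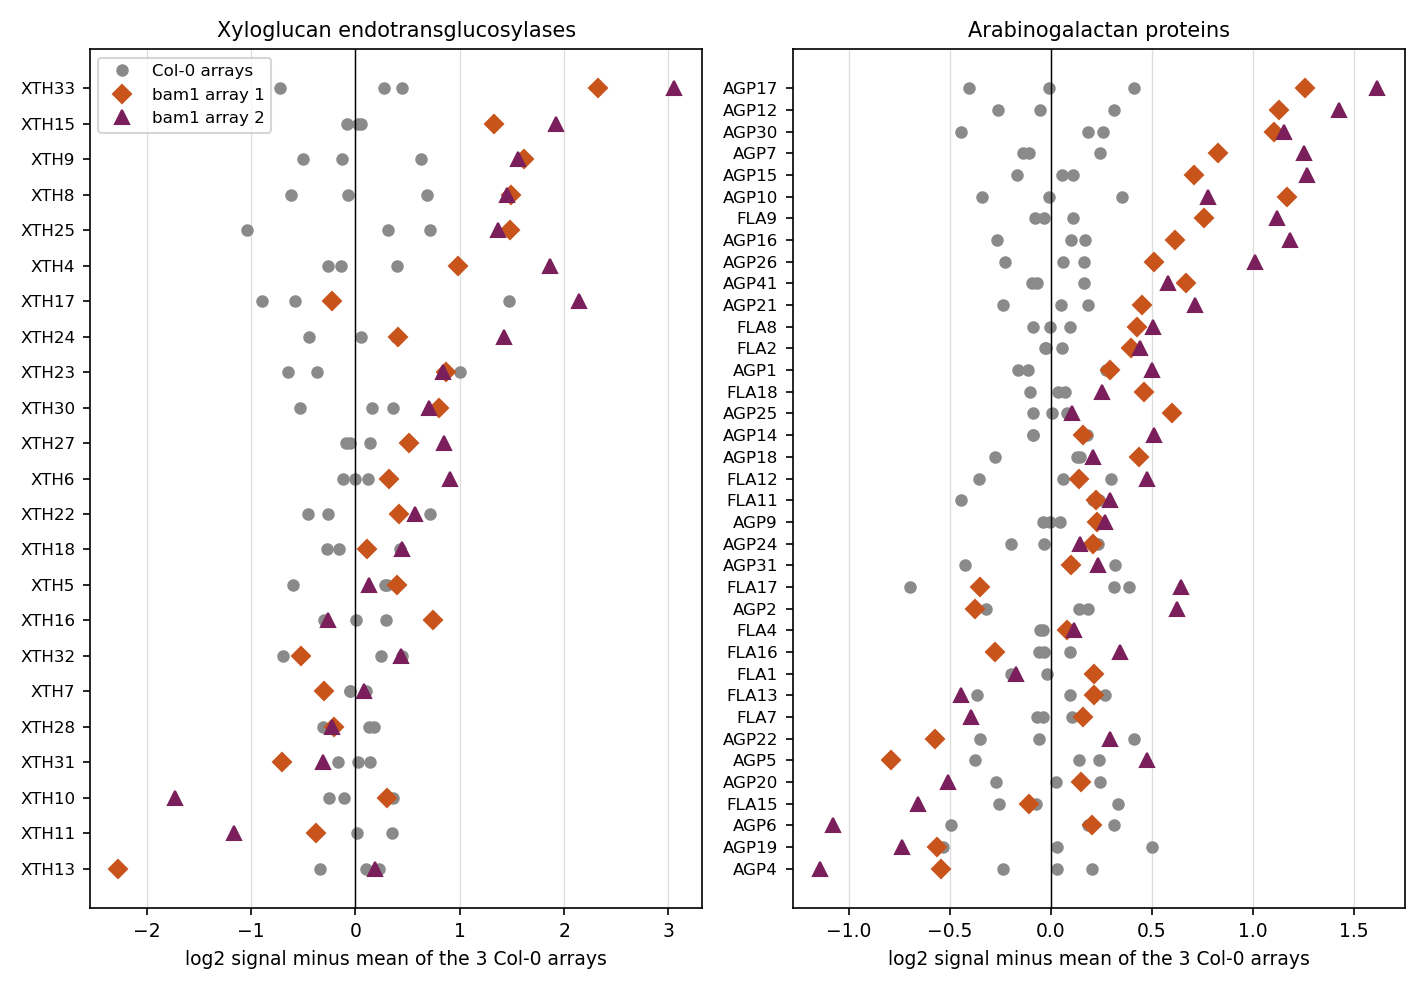
Log2 signal minus the mean of the 3 Col-0 arrays (x axis) for each of 23 xyloglucan endotransglucosylases (left) and 37 arabinogalactan proteins (right), with diamonds for bam1 array 1, triangles for bam1 array 2 and circles for the Col-0 arrays. Both bam1 arrays lie above all Col-0 arrays in 10 genes on the left and 18 on the right.

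Genes of the circadian clock lay on both sides of Col-0. Of 14 clock genes, a list that does not hold PRR3, 7 were higher and 4 lower in bam1 without overlap, compared with 13.5% and 10.4% of all genes, 6 had an unadjusted p under 0.05 and 0 were called with 1 probe per gene. GRP7 is in this list by its brightest probe (adjusted p 0.0502), whereas another probe of it is among the 19 called features. Those higher included genes expressed in the evening. LUX read 10.26 and 10.03 in bam1 against 9.23, 9.19 and 9.03. PRR5, a repressor of the morning genes, read 11.53 and 11.28 against 10.37, 10.67 and 10.21 (0.98 ± 0.20, adjusted p 0.101), and ELF4, a partner of LUX, read 12.02 and 11.496 against 11.08, 11.17 and 10.27 (0.91, adjusted p 0.280). TOC1 was at 0.37 and ELF3 at 0.27, both without overlap.

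The morning genes LHY, CCA1, RVE8 and RVE1 lay in the other direction. LHY read 9.64 and 9.37 in bam1 against 10.35, 9.88 and 10.55 (-0.76, adjusted p 0.651), CCA1 11.92 and 11.76 against 12.47, 12.17 and 12.01 (-0.38), and RVE8 7.48 and 7.88 against 8.15, 7.99 and 8.49 (-0.53). RVE1, at 10.70 and 9.91 against 11.21, 10.69 and 11.63 (-0.87), overlapped by a narrow margin. None of the 4 passed the test. Not every clock gene followed these 2 directions. GI read 11.69 and 11.04 in bam1 against 11.44, 11.52 and 11.31 in Col-0 and overlapped. PRR7 also overlapped, at 13.36 and 13.23 against 13.00, 13.24 and 13.15. FKF1 lay above and PRR9 below all Col-0 arrays, each by a narrow margin. The median over the 14 genes was 0.15, and it was 0.25 from array 1 and 0.11 from array 2. In leaves the median was -0.01, PRR5 changed by -0.53 and LUX by 0.37, neither called.

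The same genes were far apart between the tissues in Col-0, with stomata minus leaf differences (log2) of -4.93 for PRR3 and -4.15 for LUX, and of 5.11 for LHY and 4.71 for CCA1. The bam1 stomata thus lay nearer to the leaf level than the Col-0 stomata did for PRR3, LUX, LHY and CCA1. The labels give 1 harvest time for all samples and no clock time for single arrays. The study's methods also place the weighing of plants, which came before the stomatal preparation, some hours into the light period. Whether stomata and leaves were sampled at different times was not tested, so tissue and sampling time cannot be told apart here.

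**Figure D5:**
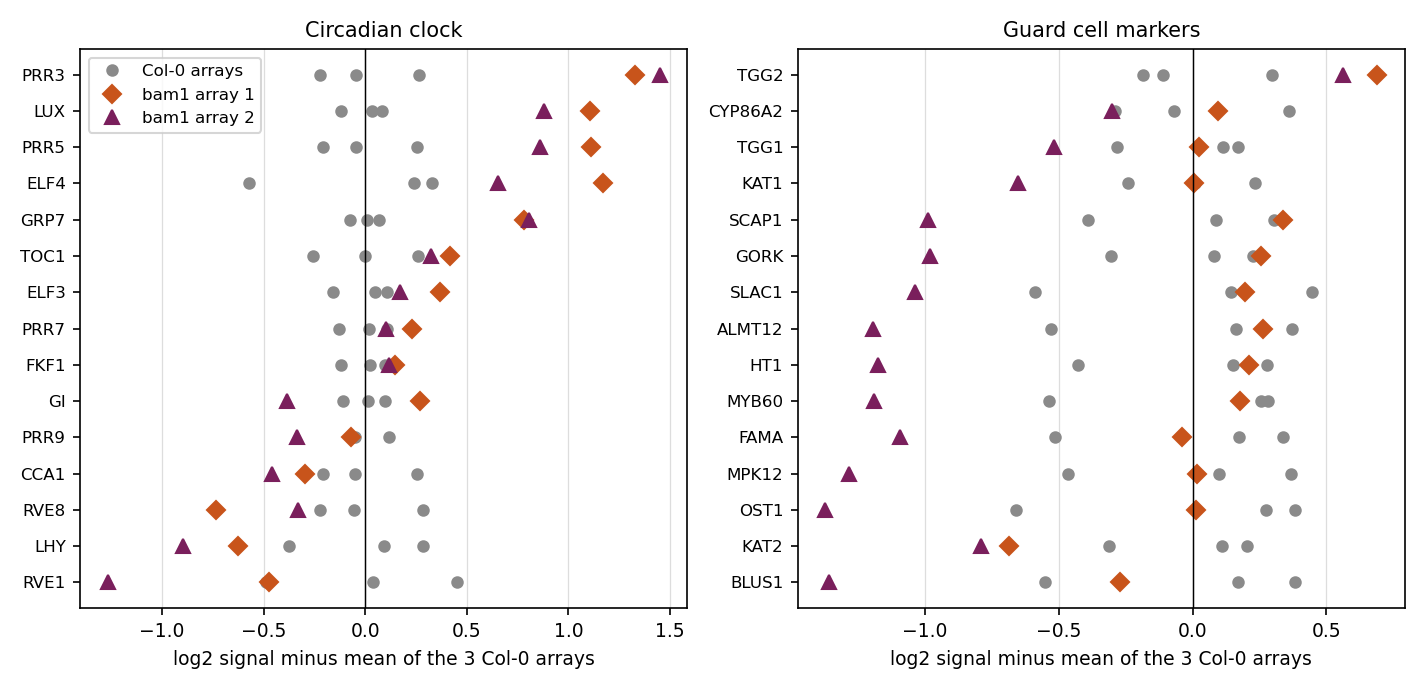
Log2 signal minus the mean of the 3 Col-0 arrays (x axis) for PRR3 and 14 clock genes (left) and 15 guard cell markers (right), with diamonds for bam1 array 1, triangles for bam1 array 2 and circles for the Col-0 arrays. PRR3, LUX, PRR5 and ELF4 lie above and LHY and RVE8 below the Col-0 arrays on both bam1 arrays, whereas array 2 is the lowest array for 14 guard cell markers.

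No starch gene was called. Over all genes 13.5% were higher and 10.4% lower without overlap, and 8.38% had an unadjusted p under 0.05 in limma. Of 16 starch degradation genes other than the beta-amylases, 7 were higher and 1 lower without overlap, 0 were called in limma, 3 had an unadjusted p under 0.05, and the median was 0.14 (0.07 from array 1 and 0.31 from array 2). The largest change was that of PWD, the phosphoglucan, water dikinase that phosphorylates starch ahead of beta-amylase, at 13.03 and 13.56 in bam1 against 12.64, 12.68 and 12.42 (0.71 ± 0.17, adjusted p 0.145). The debranching enzyme ISA3 (0.39) and the glucan, water dikinase GWD1 (0.36) also lay above all Col-0 arrays. In leaves the median was -0.12, and PWD was at -0.13. Of 17 starch synthesis genes, 2 were higher and 2 lower without overlap, with a median of -0.07 (-0.03 from array 1 and 0.08 from array 2) and 1 at an unadjusted p under 0.05. The largest change there was -0.58 in APL4, a large subunit of ADP-glucose pyrophosphorylase, at 11.54 and 10.44 against 11.04 to 11.87. Of 23 genes of sugar and malate metabolism and transport, 2 were higher and 1 lower without overlap, with a median of -0.03 (0.03 from array 1 and -0.09 from array 2), and the sucrose synthase SUS3 (-0.62) and the invertase CWINV3 (0.35) had the largest changes. The study had picked starch and sugar genes too, from drought against control in Col-0 stomata and leaves, which shares the Col-0 control arrays.

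Among 15 genes of carbon starvation and sugar response, 6 were higher and 1 lower without overlap, compared with 13.5% and 10.4% of all genes. None was called, and 4 had an unadjusted p under 0.05. The median was 0.19, or 0.11 from array 1 and 0.41 from array 2. The starvation-induced DIN10 read 12.02 and 12.59 in bam1 against 10.96, 11.19 and 11.03 (1.25 ± 0.42, adjusted p 0.346), and the inositol oxygenase MIOX2 read 4.80 and 6.06 against 4.08, 3.03 and 4.76 (1.47, adjusted p 0.470). The transcription factor BZIP11 read 9.83 and 10.10 against 9.31, 9.22 and 9.48 (0.63 ± 0.14, adjusted p 0.137). EXO, which rose by 3.60 in leaves of bam1 (adjusted p 1.6e-04), was at 0.26 in stomata, with bam1 at 11.45 and 10.69 and Col-0 at 10.63 to 10.98.

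Abscisic acid (ABA) and drought markers were counted in the same way, with 2 higher and 9 lower without overlap among 26 measured. This compared with 13.5% and 10.4% of all genes. Of the 26, 7 had an unadjusted p under 0.05 and 0 were called. Their median was -0.23, and -0.18 and -0.32 from arrays 1 and 2. RD20, a caleosin of drought-treated leaves, read 13.35 and 12.76 in bam1 against 13.96, 14.04 and 13.77 (-0.87 ± 0.19, adjusted p 0.121). The phosphatase ABI2, a repressor of ABA signalling, read 12.70 and 11.89 against 13.19, 12.74 and 13.42 (-0.82, adjusted p 0.279). ABF3, a transcription factor of the pathway, read 12.86 and 12.38 against 13.39, 13.14 and 13.38 (-0.68). RAB18, a dehydrin, read 16.32 and 15.15 against 16.85, 16.12 and 16.69, with array 1 inside the Col-0 range. All 4 were higher in Col-0 stomata than in leaves, by 1.45 to 2.79, and array 2, with the lowest guard cell markers, was the lower bam1 array for each. The part of that array's guard cell markers in these values was not tested. Of the 26, 9 changed upward. RD29A lay above all Col-0 arrays, at 14.42 and 14.235 against 13.93, 14.09 and 13.94 (0.34, adjusted p 0.890). COR15A rose by 0.26 and overlapped. RD29A and COR15A were lower in Col-0 stomata than in leaves, at -2.95 and -2.56.

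Of 20 ion transport genes of guard cells, some of which are also guard cell markers, 1 was higher and 2 were lower without overlap. Over all genes these shares were 13.5% and 10.4%. The median of -0.33 for the 20 genes split into 0.00 from array 1 and -0.65 from array 2. None was called, and 5 had an unadjusted p under 0.05. KAT2 read 10.71 and 10.60 in bam1 against 11.60, 11.08 and 11.504, so that both arrays were low (-0.74 ± 0.18, adjusted p 0.157). The cation exchanger CHX20 read 14.10 and 13.06 against 14.54, 13.76 and 14.63 (-0.73, adjusted p 0.484). Of the 10 flavonoid genes, which in Col-0 had a median 2.21 higher in stomata, 0 were higher and 1 was lower without overlap, with a median of -0.47 (0.05 from array 1 and -0.67 from array 2), and PAP1, a regulator of anthocyanin synthesis, was at -0.69 and GSTF12 at -0.68. None of the 10 was called, and 2 had an unadjusted p under 0.05. The part of the guard cell markers in the array 2 values of these lists was not tested.

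Of 26 measured genes of wounding, jasmonate and touch, 0 were higher and 12 lower without overlap, compared with 10.4% of all genes lower, 4 had an unadjusted p under 0.05 and 0 were called. The median was -0.31, or -0.51 from array 1 and -0.28 from array 2. The jasmonate hydroxylase CYP94B3 read 5.98 and 6.32 in bam1 against 7.85, 9.43 and 7.54 (-2.13 ± 1.60, adjusted p 0.793), and WRKY40 read 6.64 and 7.07 against 8.47, 9.25 and 7.59 (-1.58, adjusted p 0.755). The storage protein VSP1 read 10.99 and 12.62 against 13.35, 13.61 and 12.68 (-1.40, adjusted p 0.347), and MYC2, a transcription factor of jasmonate responses, read 13.02 and 12.22 against 13.80, 13.82 and 13.81 (-1.19, adjusted p 0.700). The SE was large beside the change for CYP94B3, WRKY40 and MYC2. In leaves, 20 of the 26 had the same sign and the median was -0.18.

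The following counts stand beside 13.5% of all genes higher and 10.4% lower without overlap. Of 19 aquaporins, 5 were higher and 2 lower without overlap (median 0.15, or -0.008 from array 1 and 0.21 from array 2), with changes of -0.44 in TIP2;3 to 0.59 in DELTA-TIP. Of 25 Aux/IAA genes, repressors of auxin response, 4 were higher and 4 lower (median -0.03, or 0.05 and 0.08 from the single arrays), with IAA6 at 0.79 and IAA1 at -0.39. Of 49 SAUR genes, 6 were higher and 1 lower (median -0.10, or -0.17 from array 1 and 0.07 from array 2), and SAUR78 read 13.70 and 14.06 in bam1 against 12.51, 13.09 and 12.87 (1.05 ± 0.27, adjusted p 0.198), with a called rise of 1.73 in leaves. Of 23 ethylene-responsive factors, 4 were higher and 7 lower (median -0.31, or -0.41 from array 1 and -0.003 from array 2), from -0.95 in ERF13 to 1.00 in ATERF48. Of 11 pentatricopeptide repeat proteins, 2 were higher and 0 lower (median -0.003, or 0.10 from array 1 and 0.07 from array 2), with AT3G22470 at -0.38 and PNM1 at -0.31. These 11 are only a small part of the family as the paper counts it, and fewer than the members it reported. Aquaporins, auxin and ethylene genes and pentatricopeptide repeat proteins had also been picked by the study, from drought against control in bam1 stomata, which shares the control arrays. Of 11 glucosinolate, 10 defence and 5 heat shock genes, 0, 0 and 1 were higher and 2, 2 and 0 lower, with medians of -0.12, -0.06 and -0.47. From array 1 these medians were -0.02, -0.25 and -0.16, and from array 2 they were -0.17, 0.12 and -0.60. Among the defence genes the defensin PDF1.2 (0.74) and ICS1 (-0.32) had the largest changes. SUR1, an enzyme of glucosinolate synthesis, read 13.87 and 11.77 in bam1 against 13.66 to 14.07 in Col-0, and HSP101, a heat shock chaperone, read 9.17 and 6.35 against 9.47 and 8.87 on the 2 Col-0 arrays that measured it, so that both rested on array 2 alone. No gene of these lists was called, while 3 Aux/IAA, 4 SAUR, 2 ethylene-responsive, 1 glucosinolate and 1 heat shock genes had an unadjusted p under 0.05.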

How the data were processed

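RNA was hybridised to one-colour Agilent Arabidopsis arrays. The deposited scanner files give spot intensity. According to the file headers, Feature Extraction 11.5.1.1 had subtracted background and detrended the processed signal, and other deposited columns flag outliers and detection above background. The series matrix, used as an alternative, has deposited log2 values that the study's methods describe as quantile-normalised and median-centred. Groups were read from sample titles, also for drought stomata of Col-0, where 1 title and its source name carry different replicate numbers. Of the data columns, 0 could not be assigned.

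Outlying spots were set to missing, and processed signals were log2-transformed, quantile-normalised over the 20 arrays and averaged per probe. Of 43603 probes, 29384 were well above background on all arrays of either stomatal group and were tested (10 could not be fitted, and 379 had a missing array). RefSeq TAIR10.1 transcript identifiers gave a locus for 34348 probes (78.8%). The fit in limma 3.58.1 (R 4.3.3) held 8 group means over all 20 arrays, with 12 residual and 2.57 prior degrees of freedom after eBayes, and two-sided p were adjusted by Benjamini-Hochberg over all features. Where the dimmer group was below background throughout, a lower bound of the fold was computed, each dim array being set to its lowest signal well above background unless the probe was brighter. In the lists a gene stood as the probe with the highest mean over the 5 arrays. Precision is limited by the number of arrays. The fit was tested on simulated data. Plots used Python 3.11.15 and matplotlib 3.10.9.

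The rule for named genes took the beta-amylases, the genes next to BAM1, up to 12 called genes in each direction without overlap (completed for lower ones by those of the lowest p with at least 2-fold change), called list members, the largest 2 changes per list, and the 5 called features that differed most between both bam1 arrays; others were named after their values were seen. The comparison and the 27 lists were chosen with earlier results of these data known. The alternatives were another scaling, another input, other filters, other arrays in the fit, replicate and slide blocks, the methods' t-test and leaving out single arrays. Normexp (offset 50) used median signals, a choice made after the data were seen since mean signals were not among the columns used here.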

Additional observations from a re-analysis of the deposited data

Results flagged for a closer look

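In 3 features the effect of genotype in control stomata differed from that in control leaves by the direct test of the difference. AT4G01535 differed by 3.89 (3.91 in stomata and 0.03 in leaves, adjusted p 0.00168). AT2G41330 differed by -1.32: it read 9.19 and 9.504 in bam1 stomata against 8.80, 8.78 and 8.80 in Col-0, a change of 0.55 that was not called, and rose by 1.87 in leaves (adjusted p of the difference 0.0128). AT1G69760 differed by -1.86, with a change of -0.24 in stomata and a rise of 1.62 in leaves (adjusted p of the difference 0.0128). The latter 2 were named after their values were seen. The AT4G01535 difference missed the threshold with the slide as a fixed block and with normexp background correction. The other 2 missed it with the replicate block, with the fixed slide block and without Col-0 array 3, and AT1G69760 also without bam1 array 2.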

How the results depend on the processing

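The 19 calls kept their sign in the limma refits that tested them, but their number moved. It was 10 with a 75th percentile shift (9 of them among the 19), 19 without a filter (14 among the 19), 8 with normexp (chosen after seeing the data), 12 of 12 tested when probes had to be well above background on all 5 arrays, 4 with the replicate block and 1 with the slide as a fixed block, whereas it was 18 with the slide as a random block. In limma 0 were called with only the 5 arrays (2058 at an unadjusted p under 0.05), with quantiles over these 5 alone (2049) or with only the 9 stomatal arrays (2012). The methods' t-test gave 171 unadjusted and 0 after Benjamini-Hochberg. Without the array that contradicted its label 27 were called, and BAM1 (-5.11), by whose signal that array had been singled out, passed. Leaving out single arrays gave 1 to 523 calls. The number of stomata minus leaf differences called was 5 with the percentile shift and without the contradictory array, 11 with normexp, 1 with the replicate block, 0 with the fixed slide block, and 1 to 237 when single arrays were left out. Deviations of same-numbered arrays from their group means correlated at 0.175 and -0.024 over the 2 shared numbers. With 2 bam1 arrays these deviations mirror each other, so they cannot settle whether replicate numbers pair the samples. The causes were not tested.

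Changes that were not called turned sign in the following cases. BAM8 was 0.018 with normexp, BAM7 0.046 with the replicate block and 2.9e-04 with the fixed slide block, where ERF13 was 0.18 and RBCS1A 0.14. When single arrays were left out, SUR1 ranged from -2.10 to 1.9e-04, HSP101 from -2.82 to 0.0038, LHCB1.1 from -0.44 to 0.026, PDF1.2 from -0.86 to 2.34, AT3G22470 from -0.86 to 0.10, PNM1 from -0.64 to 0.018, EPF1 from -1.22 to 0.16, SUS3 from -1.31 to 0.080, CWINV3 from -0.036 to 0.74, BAM3 from -0.16 to 0.53, BAM6 from -0.40 to 0.23, BAM7 from -0.21 to 0.21 and BAM8 from -0.19 to 0.11. With 2 bam1 arrays, weak signals such as AT2G21820 and AT4G08670 rest on bounds against background.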
